A study of Mus musculus with 40 samples.

Results

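Erythroid cells of the mouse spleen were compared between thalassemic and wild type animals by RNA-seq of the adult globin genes. The members are the 20 libraries labelled spleen, out of 40 in the series; the other 20 came from bone marrow of the same 20 mice. The 4 groups of 5 spleen libraries combined genotype and beta-globin haplotype: wild type (WT) single, WT diffuse, Hbb th3/+ single and Hbb th3/+ diffuse. Every library was made from cells captured with beads against Ter119, a surface antigen of the red cell lineage, and every mouse carries the strain label C57BL/6J, the diffuse mice included. The labels give neither age nor sex. Hbb th3 is a deletion that removes both adult beta-globin genes from 1 chromosome, so a heterozygote is a model of beta-thalassemia in which adult beta-globin is made from the remaining chromosome in every cell. Diffuse mice carry the beta-major gene Hbb-b1 with the beta-minor gene Hbb-b2, and single mice carry Hbb-bs with Hbb-bt.

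Haemoglobin is assembled from alpha and beta chains, which the alpha cluster (Hba) and the beta cluster (Hbb) encode on separate chromosomes. When too little beta chain is made, free alpha chain precipitates and damages the red cell precursors, and the mouse spleen becomes a main site of the enlarged erythropoiesis. Each adult globin gene has 3 exons and 2 introns. Mature mRNA holds the exons alone, so reads over introns come from RNA (or DNA) that still holds them.

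Which gene a read is given to depends on short differences between near-identical copies. In GENCODE M21, the annotation of GRCm38 (mm10), Hbb-bs lies at chr7:103826534-103828096 and Hbb-bt at chr7:103812524-103813996, both on the minus strand. Hba-a1 lies at chr11:32283511-32284465 and Hba-a2 at chr11:32296489-32297298, both on the plus strand. Hbb-b1 and Hbb-b2 have no position in that annotation. The coding sequences of Hba-a1 and Hba-a2 differ at 1 base of 426, written C381T from the first gene to the second, and 1 base of 441, C417T, separates Hbb-bs from Hbb-bt, both counted from the first base of the start codon. The stretches around these bases are shown 5′ to 3′ on the gene's strand, with the differing base in capitals, since such bases divide the coding reads of a pair.
Hba-a1 coding, chr11:32284323-32284363: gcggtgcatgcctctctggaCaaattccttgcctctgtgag
Hba-a2 coding, chr11:32297140-32297180: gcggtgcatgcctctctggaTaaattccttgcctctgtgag
Hbb-bs coding, chr7:103826672-103826712, minus strand: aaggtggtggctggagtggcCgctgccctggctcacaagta
Hbb-bt coding, chr7:103812663-103812703, minus strand: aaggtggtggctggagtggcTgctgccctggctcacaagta

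Intron reads of the alpha pair also meet stretches that cannot be divided. Intron 1 is 122 bases long in both genes. The annotated transcripts that retain it hold its last 113 bases, which differ at 0 positions between Hba-a1 and Hba-a2, so no base is in capitals. Intron 2 was not compared here.
Hba-a1 intron 1, chr11:32283811-32283923: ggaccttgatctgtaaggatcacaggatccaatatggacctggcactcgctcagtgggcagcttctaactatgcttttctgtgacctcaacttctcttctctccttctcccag
Hba-a2 intron 1, chr11:32296628-32296740: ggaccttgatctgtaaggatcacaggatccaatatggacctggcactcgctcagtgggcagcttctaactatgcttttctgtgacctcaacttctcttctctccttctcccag

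Many alpha reads were left undivided. Reads that the table puts in a column headed Ambiguous, taken here as reads shared by the alpha pair, made up 29.1% to 34.5% of the alpha exon counts of the 20 spleen libraries. They made up 78.4% to 88.4% of the alpha intron counts. On the single haplotype this part was 84.2% to 88.4% in WT and 80.7% to 82.5% in th3/+ libraries, without overlap. The diffuse ranges overlapped, at 78.4% to 86.9% in WT and 78.7% to 81.7% in th3/+ libraries. A larger part of the alpha intron reads was thus uniquely assigned in th3/+ single libraries, which bears on the intron values of Hba-a1 and Hba-a2 alone. Values for Hba-a1 and Hba-a2 alone therefore rest on the smaller part of the alpha intron reads, between 84 and 2733 per library. A column headed Hbb-single, taken as reads shared by Hbb-bs and Hbb-bt, was 0 in all diffuse libraries, and its counterpart Hbb-diffuse was 0 in all single libraries.

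Globin exon counts summed to between 10110962 and 29112305 per spleen library and intron counts to between 3837 and 33428. Both extremes of exon depth were WT diffuse libraries, number 5 the shallowest and number 4 the deepest. Other genes were not analysed here, so the level of the sorted cells' other markers and the depth over all genes were not used, and fewer cells of a type cannot be told apart from less RNA per cell. Of the 5 WT single mice, 4 carry a mouse code of another series (JAW) than the mice of the other groups (BZC), so in the single comparison the code series and the genotype can hardly be told apart; the WT single mouse with a BZC code is library 3. Nothing in the labels says whether the 5 animals of a group were litter mates.

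The make-up of the globin mRNA pool shifted from beta to alpha genes in th3/+ spleen cells of both haplotypes. Each of the 11 gene or shared columns tested changed its share of all globin exon counts, 6 upward (alpha) and 5 downward (beta). That is 100% of the columns tested, and since the shares of a library sum to a whole, the rise of one side fixes the fall of the other. The minute Hbb-diffuse column, with 472 to 1496 exon counts in diffuse libraries, was not tested; its share was 0.00483% ± 0.000586 in WT against 0.00493% ± 0.00131 in th3/+ (SD, n = 5 each), and the groups overlapped.

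Hbb-bs, the larger adult beta gene of the single haplotype, took 46.2%, 42.2%, 44.5%, 44.0% and 47.4% of globin exon counts in the WT libraries 1 to 5. In the th3/+ libraries it took 38.0%, 36.8%, 37.7%, 36.9% and 35.0%. The groups did not overlap. The mean fell from 44.9% ± 1.98 to 36.9% ± 1.18 (SD, n = 5 each), a log2 difference of -0.28 (95% interval -0.36 to -0.20). Its partner Hbb-bt went from 11.4% ± 0.544 to 9.83% ± 0.289 (SD, n = 5 each), a log2 difference of -0.21 (-0.29 to -0.12), again with all 5 th3/+ libraries below all 5 WT libraries. The reads shared by the pair went from 11.6% ± 1.12 to 8.66% ± 0.939 (SD, n = 5 each), a log2 difference of -0.43 (-0.59 to -0.21). Here 4 of 5 th3/+ libraries lay below all WT libraries.

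Among diffuse mice the beta-major gene Hbb-b1 took 61.9%, 61.3%, 60.2%, 60.7% and 67.6% of globin exon counts in WT libraries 1 to 5. It took 48.2%, 50.0%, 49.2%, 49.6% and 48.8% in the th3/+ libraries. All th3/+ libraries were below all WT libraries, and WT library 5 stood above the other 4. The mean fell from 62.4% ± 3.01 to 49.1% ± 0.714 (SD, n = 5 each), a log2 difference of -0.34 (-0.42 to -0.29). The beta-minor gene Hbb-b2 fell less far, from 12.0% ± 0.594 to 10.6% ± 0.432 (SD, n = 5 each), a log2 difference of -0.17 (-0.27 to -0.08), without overlap.

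The alpha genes took up the difference. Hba-a1 took 12.3%, 13.3%, 12.5%, 12.6% and 12.0% in WT single libraries against 17.2%, 19.2%, 18.4%, 18.9% and 20.4% in th3/+ single libraries. All th3/+ values were higher, with a mean log2 difference of 0.58 (0.47 to 0.69). In diffuse mice it rose from 10.4% ± 1.22 to 17.1% ± 0.634 (SD, n = 5 each), a log2 difference of 0.72 (0.57 to 0.91). Hba-a2, which encodes the same chain, rose from 8.74% ± 0.534 to 11.9% ± 0.694 on the single haplotype (log2 difference 0.44) and from 7.16% ± 0.756 to 10.7% ± 0.306 on the diffuse haplotype (log2 difference 0.59; SD, n = 5 each). The shared alpha reads rose by 0.37 and 0.63 on the log2 scale. For 10 of the 11 columns a two-sided exact permutation test gave p = 0.00794, which 5 against 5 libraries cannot go below, and the adjusted p was 0.00873 over the 11 tests. For the shared Hbb-bs and Hbb-bt reads both were 0.0159.

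**Figure D1:**
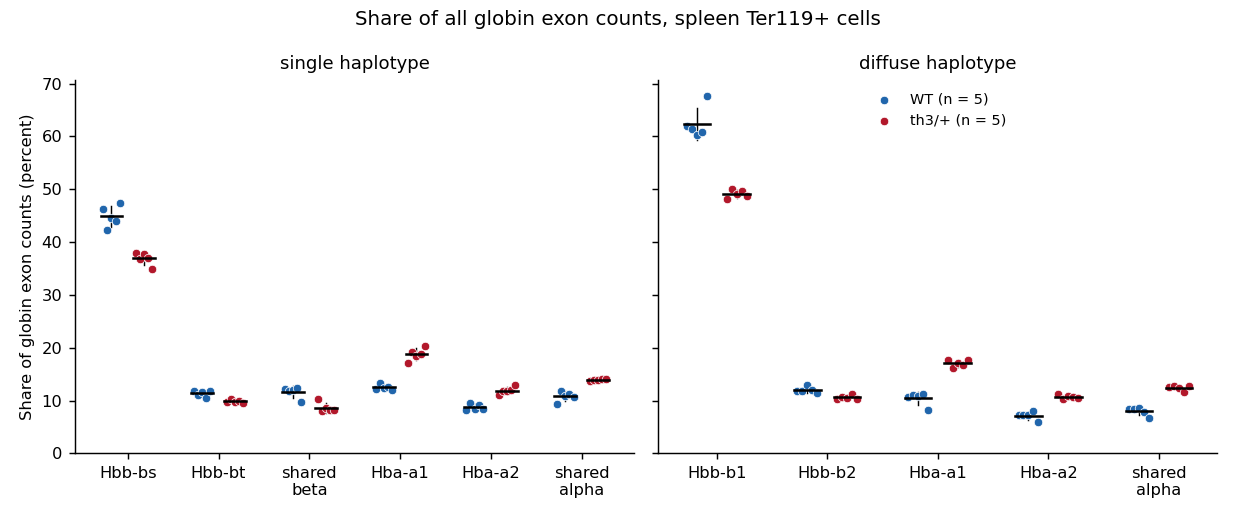
Share of all globin exon counts, in percent, taken by each gene or shared column in spleen Ter119+ cells, for the single (left) and diffuse (right) haplotype. Points are libraries (blue WT, red th3/+), horizontal lines group means and vertical lines ± SD (n = 5); beta columns sit lower and alpha columns higher in th3/+, as for Hbb-b1 at 49.1% against 62.4%.

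The balance inside the alpha pair also moved, on both haplotypes and by a similar amount. Hba-a2 made up 40.3%, 41.6%, 40.5%, 42.0% and 41.0% of the uniquely assigned alpha exon counts in WT single libraries. In th3/+ single libraries it made up 39.1%, 37.9%, 38.9%, 38.8% and 38.9%. Its WT values on the diffuse haplotype were 40.1%, 40.1%, 39.9%, 41.6% and 41.8% and the th3/+ values 38.6%, 38.9%, 38.8%, 39.2% and 37.5%. In neither haplotype did the groups overlap. The log2 odds of Hba-a2 against Hba-a1 fell by 0.14 on the single haplotype (95% interval -0.20 to -0.09) and by 0.13 on the diffuse haplotype (-0.20 to -0.06), with an exact permutation p of 0.00794 and an adjusted p of 0.0317 over 8 balance tests. The difference between the haplotypes was 0.02 on the log2 scale (permutation of residuals, p = 0.680, adjusted p = 0.884). Without WT libraries 4 and 5 of each haplotype, described below, all th3/+ libraries still lay below the 3 remaining WT libraries (log2 differences -0.13 and -0.09). The p of 0.0179 was then the smallest that 5 against 3 allows, and the adjusted p was 0.0714.

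The other balances did not pass. The exon share of the less abundant beta gene of each pair went up slightly. Hbb-bt went from 20.2% ± 0.608 to 21.04% ± 0.552 of its pair (exact permutation p = 0.0635, adjusted p = 0.127). Hbb-b2 went from 16.1% ± 1.20 to 17.8% ± 0.470 of its pair (exact permutation p = 0.0238, adjusted p = 0.0635). Values after ± are SD (n = 5 each). The Hbb-b2 balance passed without WT diffuse library 3 (adjusted exact permutation p = 0.0212). In intron counts Hba-a2 made up 41.0% ± 1.52 and 41.5% ± 1.21 of its pair in WT and th3/+ single libraries, and 41.9% ± 1.26 and 40.7% ± 1.86 in diffuse libraries (SD, n = 5 each). The intron balance of Hba-a2 against Hba-a1 changed by 0.03 (95% interval -0.09 to 0.15) and -0.07 (-0.23 to 0.07) on the log2 scale. On the single haplotype that interval does not reach the exon change of -0.14; on the diffuse haplotype it holds it. The difference between the exon and intron change was not tested.

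The intron balance of the diffuse beta pair was the most variable of these values. Hbb-b2 made up 35.8%, 39.1% and 36.7% of the intron counts of Hbb-b1 plus Hbb-b2 in WT libraries 1 to 3, but 57.9% and 65.7% in WT libraries 4 and 5. The th3/+ libraries ranged from 34.8% to 46.8%. The same share in exon counts was 14.4% to 17.7% in WT libraries and 17.4% to 18.6% in th3/+ libraries. Hbb-b2 thus held a larger part of the pair's intron counts than of its exon counts in every diffuse library. Whether its introns are longer than those of Hbb-b1 could not be read from the annotation used.

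**Figure D2:**
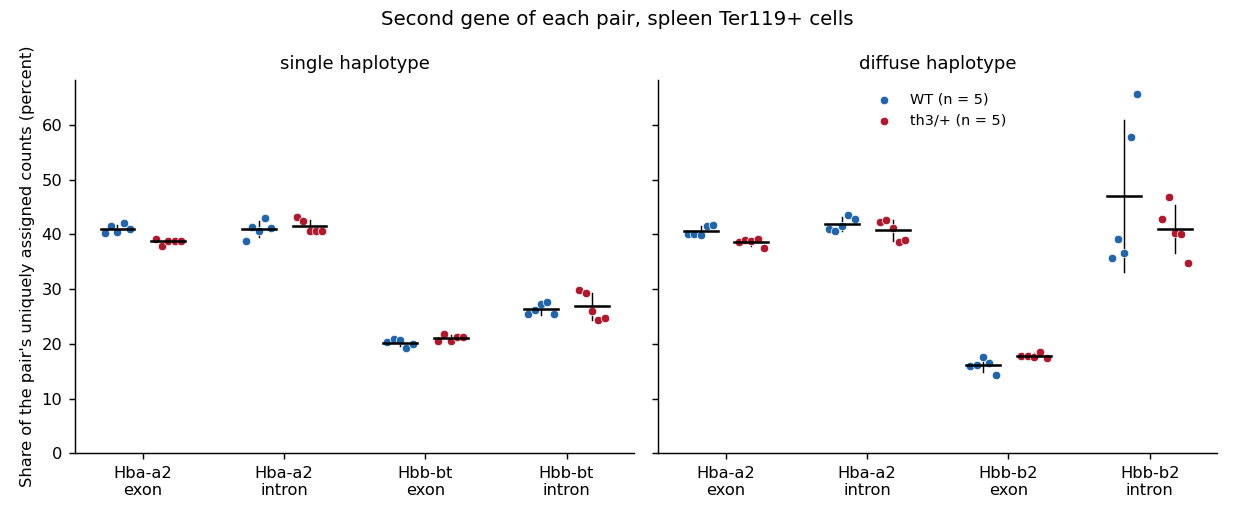
Second gene of each pair as a percent of the pair's uniquely assigned counts, exon and intron counts separately, per library, with group means and ± SD (n = 5). The exon share of Hba-a2 lies lower in th3/+ on both haplotypes (38.7% against 41.1% on the single haplotype), and 2 WT diffuse libraries stand high for Hbb-b2 in introns, at 57.9% and 65.7%.

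The beta to alpha ratio fell in intron counts as well as in exon counts. The sums hold every beta or alpha column of the table, shared reads included. Beta genes of the haplotype not carried made up at most 0.115% of a library's beta exon counts, and of its beta intron counts at most 1.5% on the single and 0.115% on the diffuse haplotype. The intron ratio of WT single libraries was 0.804, 0.842, 0.853, 0.938 and 0.984. In th3/+ single libraries it was 0.407, 0.373, 0.375, 0.421 and 0.420. All th3/+ values lay below all WT values, and the fold was 0.452 (95% interval 0.406 to 0.503). WT diffuse libraries 1 to 5 had ratios of 2.17, 2.01, 2.10, 4.14 and 4.99, and th3/+ diffuse libraries had 1.08, 1.11, 1.00, 1.26 and 1.02. The groups did not overlap, with a fold of 0.383 (0.229 to 0.568). Both changes had an exact permutation p of 0.00794 and an adjusted p of 0.0119 over 6 tests.

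The 2 high WT diffuse libraries carry part of that size. Without WT libraries 4 and 5 of each haplotype, the WT diffuse intron ratio was 2.09 ± 0.0806 (SD, n = 3) and the fold 0.522, while the single haplotype gave 0.479; the adjusted exact permutation p was 0.0268 for both. The exon ratio, measured in the same libraries, had folds of 0.586 on the single and 0.510 on the diffuse haplotype with all libraries. Without those WT libraries the diffuse exon and intron folds were 0.540 and 0.522.

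Whether the beta to alpha ratio fell more in introns than in exons was tested as the intron ratio divided by the exon ratio. This quotient equals the summed beta intron percent divided by the summed alpha intron percent, so it can fall without a fall of beta introns. With all libraries the log2 differences of these percents were 0.24 (beta) and 0.62 (alpha) on the single haplotype. They were 0.32 and 0.74 on the diffuse haplotype, and none passed. On the single haplotype the quotient was 0.419 ± 0.0489 in WT libraries against 0.323 ± 0.0367 in th3/+ libraries (SD, n = 5 each), a fold of 0.771 (0.656 to 0.919; exact permutation p = 0.0238, adjusted p = 0.0286). In 3 of 5 th3/+ libraries it lay below all WT libraries. Without WT libraries 4 and 5 the fold was 0.815 and the adjusted p 0.0857. On the diffuse haplotype the fold was 0.751 (0.493 to 1.04) and did not pass (exact permutation p = 0.103), and without those libraries it was 0.967. With uniquely assigned reads alone and all libraries it passed there too, at -0.65 on the log2 scale (adjusted exact permutation p = 0.00794). In those reads the quotient was 3.09, 3.15 and 3.39 in WT diffuse libraries 1 to 3 and 2.49 to 2.75 in th3/+ diffuse libraries. The groups thus stayed apart without WT libraries 4 and 5, but that comparison was not tested.

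**Figure D3:**
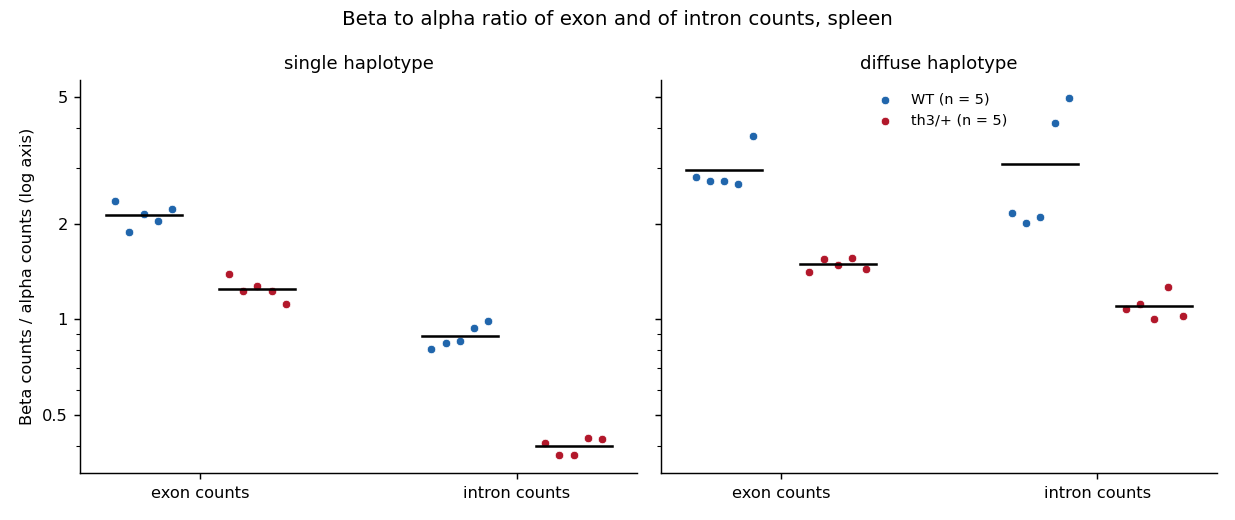
Beta counts divided by alpha counts (log axis), for exon and for intron counts, per spleen library, with group means as horizontal lines (n = 5). WT and th3/+ do not overlap in either count on either haplotype; WT diffuse libraries 4 and 5 stand at 4.14 and 4.99 in introns, above the other 3 WT libraries.

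Intron counts per exon count, a measure of how much unspliced or intron-retaining RNA accompanied each mRNA, showed no gene that passed the test between genotypes. None of the 8 gene tests had an adjusted p under 0.05 (0%), and 2 had an unadjusted exact permutation p under 0.05. Both were alpha genes of the single haplotype, and edgeR's quasi-likelihood test and DESeq2 on the intron counts also called 0 of 8, whereas limma called 1.

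That gene was Hba-a2. Its intron counts were 0.0321%, 0.0239%, 0.0311%, 0.0122% and 0.00902% of its exon counts in WT single libraries 1 to 5. They were 0.0363%, 0.0433%, 0.0386%, 0.0391% and 0.0428% in th3/+ single libraries. All th3/+ values lay above all WT values, and WT libraries 4 and 5 were far below the other 3. Hba-a2 introns were 2.08-fold higher per exon count (1.22 to 4.02), with p = 0.00794 in the exact permutation test and an adjusted p of 0.0635 over 8 tests. The adjusted p was 0.0373 in limma, 0.187 in edgeR's quasi-likelihood test and 0.0859 in DESeq2. Without WT libraries 4 and 5 the fold was 1.39 (adjusted exact permutation p = 0.143). Summed alpha genes of the single haplotype, shared reads included, had a smaller fold of 1.54 with all libraries, which did not pass.

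Hba-a1 had 0.0220% ± 0.0113 in WT against 0.0357% ± 0.00323 in th3/+ single libraries (SD, n = 5 each), a fold of 1.84 (1.05 to 3.69; exact permutation p = 0.0238, adjusted p = 0.0952), and 1.21 without WT libraries 4 and 5. Diffuse libraries had, for Hba-a1, 0.0245% ± 0.0178 in WT against 0.0355% ± 0.00848 in th3/+, and for Hba-a2 0.0257% ± 0.0187 against 0.0385% ± 0.00751 (SD, n = 5 each). The groups overlapped for both genes (adjusted exact permutation p = 0.492 each).

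The beta genes showed smaller differences. The value of Hbb-bs was 0.0406% ± 0.0166 in WT against 0.0441% ± 0.00857 in th3/+ libraries, and that of Hbb-bt 0.0569% ± 0.0223 against 0.0601% ± 0.00652 (SD, n = 5 each). For Hbb-b1 it was 0.0617% ± 0.0455 against 0.0688% ± 0.0178, and for Hbb-b2 0.223% ± 0.0757 against 0.216% ± 0.0206 (SD, n = 5 each). The groups overlapped in each case. The interval of the fold was wide: 0.709 to 2.06 for Hbb-bs, 0.746 to 1.88 for Hbb-bt, 0.576 to 4.23 for Hbb-b1 and 0.681 to 1.47 for Hbb-b2.

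Sums over all beta or all alpha columns, shared reads included, gave no call either. Summed beta intron counts were 0.0404% ± 0.0158 of exon counts in WT against 0.0451% ± 0.00739 in th3/+ single libraries, and 0.0881% ± 0.0520 and 0.0955% ± 0.0179 in diffuse libraries (SD, n = 5 each). Summed alpha intron counts were 0.100% ± 0.0466 and 0.139% ± 0.0100 in single libraries, and 0.106% ± 0.0787 and 0.130% ± 0.0268 in diffuse libraries (SD, n = 5 each). The exact permutation p was 0.127 to 0.444 and the adjusted p 0.444 for all 4. Scaled by annotated length, the density of intron reads on the single haplotype was 0.0350% ± 0.0136 of the exon density for the beta pair and 0.245% ± 0.114 for the alpha pair in WT libraries (SD, n = 5 each). In th3/+ libraries it was 0.0391% ± 0.00640 and 0.341% ± 0.0245 (SD, n = 5 each). The alpha pair lay above the beta pair in every single library. The size of that gap rests mostly on the shared alpha reads. In WT single libraries their intron counts were 0.257% ± 0.124 of their exon counts. The values for uniquely assigned reads were 0.0220% ± 0.0113 for Hba-a1 and 0.0217% ± 0.0106 for Hba-a2 (SD, n = 5 each).

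**Figure D4:**
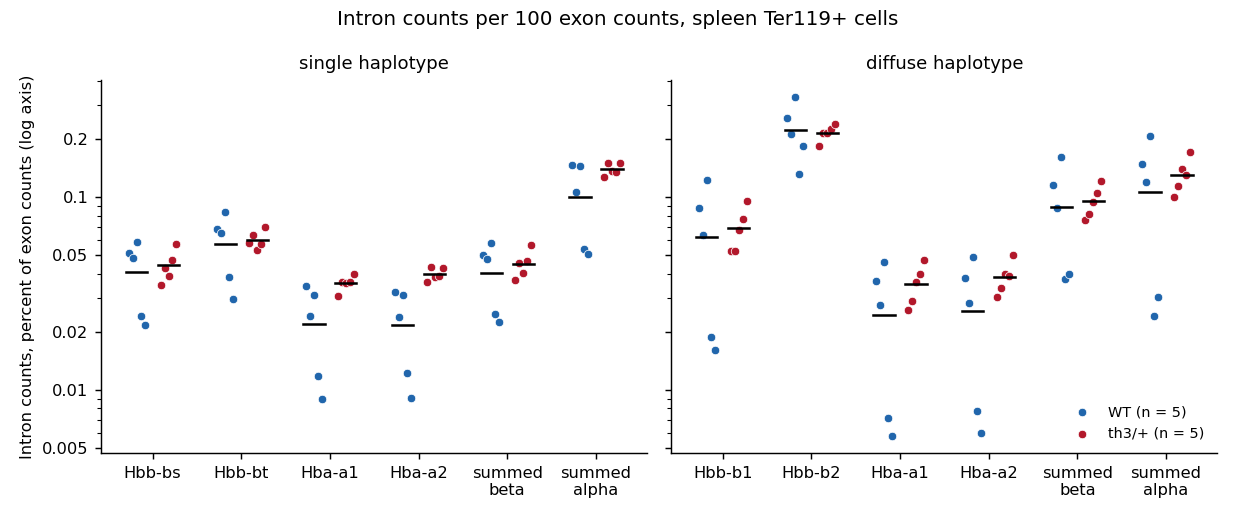
Intron counts as a percent of exon counts (log axis) for each gene and for the summed beta and alpha genes, per spleen library, with arithmetic group means as lines (n = 5). On each haplotype 2 of the 5 WT libraries lie well below the other 3, as at 0.0242% and 0.0302% for summed alpha genes of the diffuse haplotype, while th3/+ libraries stay close together.

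The wide spread of intron shares in WT came from the same libraries in each gene. In the summed alpha genes, WT diffuse libraries 1 to 5 had 0.149%, 0.119%, 0.208%, 0.0242% and 0.0302%, an 8.58-fold range. The th3/+ diffuse libraries had 0.0999%, 0.113%, 0.139%, 0.129% and 0.170%, a 1.70-fold range. WT single libraries had 0.146%, 0.106%, 0.144%, 0.0538% and 0.0506% in the summed alpha genes, and th3/+ single libraries had 0.126%, 0.149%, 0.136%, 0.135% and 0.150%. The WT libraries thus fell into 2 sets on each haplotype, libraries 4 and 5 low and 1 to 3 near the th3/+ level.

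In the summed beta genes libraries 4 and 5 were again the low ones. These genes had 0.050%, 0.0474%, 0.0573%, 0.0248% and 0.0225% in WT single libraries, and 0.115%, 0.0878%, 0.160%, 0.0375% and 0.0400% in WT diffuse libraries. Libraries 4 and 5 were the lowest 2 for each of the 8 gene values and for the shared alpha reads. Their drop was uneven between genes. Among diffuse mice the third-lowest WT library had 3.86 times the intron share of the second-lowest for Hba-a1 and 3.36 times for Hbb-b1, but 1.16 times for Hbb-b2. Since the WT libraries lie in separate sets of 4 and 6, no correlation of beta with alpha intron shares was computed over them.

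As a test of spread, the mean absolute deviation from the group median on the log2 scale was compared. For alpha genes it was 0.590 in WT against 0.0775 in th3/+ libraries of the single haplotype, and 1.08 against 0.212 on the diffuse haplotype. For beta genes it was 0.472 against 0.163, and 0.724 against 0.204. The larger spread was in WT in all 4, but none passed: exact permutation p = 0.0476, 0.119, 0.294 and 0.0873, adjusted p = 0.159, 0.159, 0.294 and 0.159. Leaving out WT library 1, 2 or 3 of a haplotype made both spread tests of that haplotype pass (adjusted exact permutation p = 0.0159 each). Leaving out WT single library 4 or 5 made the alpha test of that haplotype pass (adjusted exact permutation p = 0.0317). These passes cannot decide the question, because the statistic changes with an even number of libraries. In a full group the median is itself a library, whose deviation vanishes. Without WT library 1, 2 or 3 the median fell in the gap between the low and high WT libraries, which made every WT deviation large. Without WT libraries 4 and 5 the WT deviations were 0.154 and 0.266 for alpha and 0.0908 and 0.289 for beta genes of the single and diffuse haplotype.

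The mean differences between genotypes depended on these libraries too. Without WT libraries 4 and 5, the summed alpha percent of WT was 0.132% ± 0.0226 on the single and 0.159% ± 0.0449 on the diffuse haplotype (SD, n = 3 each). The fold of th3/+ to WT was then 1.06 and 0.829, against 1.54 and 1.67 with all libraries. For the summed beta genes the fold was 0.868 and 0.802, against 1.18 and 1.25, so the direction turned. None of these passed with or without the libraries.

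Bone marrow of the same mice did not share the low values. In WT diffuse mice 4 and 5 the summed alpha intron percent was 0.197% and 0.172% in bone marrow, beside 0.0242% and 0.0302% in spleen. In WT single mice 4 and 5 it was 0.176% and 0.272% in bone marrow, beside 0.0538% and 0.0506% in spleen. The quotient of spleen to bone marrow for these 4 mice was 0.123 to 0.306, whereas it was 0.427 to 1.05 for the other 6 WT mice and 0.765 to 1.24 for the 10 th3/+ mice.

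For the summed beta genes the quotient was 0.273 to 0.370 in those 4 WT mice. It was 0.617 to 1.23 in the other 6 WT mice and 0.767 to 1.13 in the th3/+ mice. The beta to alpha intron ratio of WT diffuse mice 4 and 5 was 1.93 and 2.10 in bone marrow, where the other 3 mice had 1.63 to 2.20. The high ratios of 4.14 and 4.99 were thus a feature of their spleen libraries. The labels and the table give no RNA quality value or preparation date, so their part was not tested. In exon depth they were the deepest and the shallowest of the WT diffuse group and the 2 deepest of the WT single group, and the part of depth was not tested. By mouse code, the 2 low WT single libraries belong to the JAW series and the 2 low WT diffuse libraries to the BZC series.

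**Figure D5:**
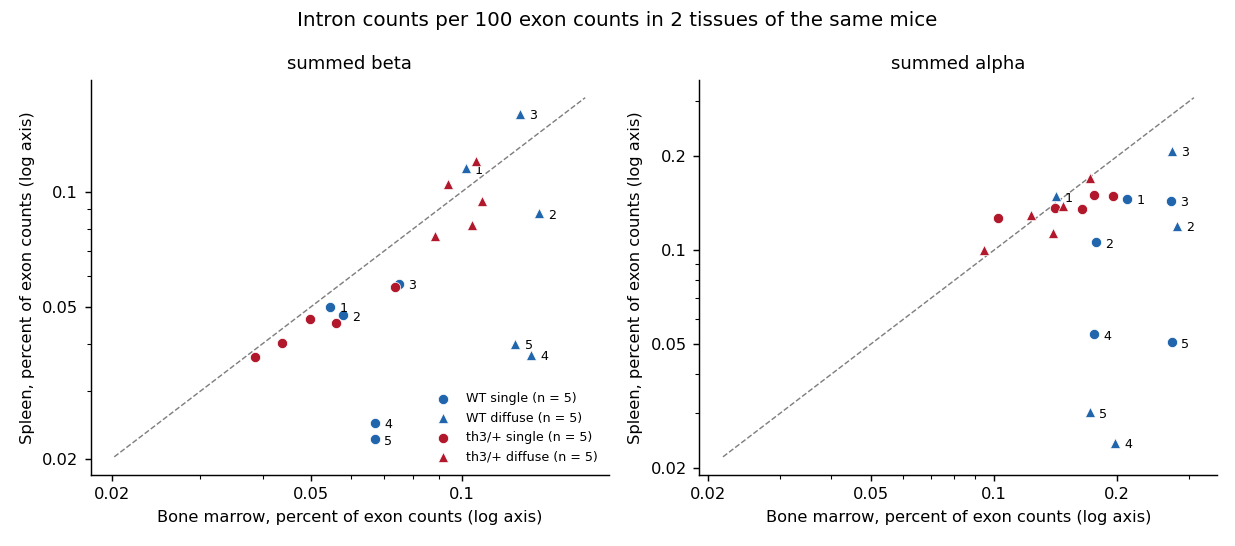
Intron counts as a percent of exon counts in spleen (vertical, log axis) against bone marrow (horizontal, log axis) of the same mouse, for summed beta and summed alpha genes; circles are single and triangles diffuse mice, numbers mark WT mice and the dashed line marks equal values. WT mice 4 and 5 of each haplotype lie far below the line, with quotients of 0.123 to 0.306 for alpha genes, and the th3/+ mice lie near it.

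The effect of th3/+ was not shown to differ between haplotypes in any of 4 tested measures. The difference of the log2 effect, diffuse minus single, was 0.08 for summed beta intron percent, 0.12 for summed alpha intron percent and -0.24 for the beta to alpha intron ratio (permutation of residuals, p = 0.884, 0.875 and 0.435, adjusted p = 0.884 each).

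Intron counts were also found for beta genes of the haplotype not carried. In WT single libraries Hbb-b2 had 1 to 7 intron counts (18 in all 5 libraries) and in th3/+ single libraries 30 to 50 (201 in all). The ranges did not overlap. Its exon counts ranged from 478 to 1939 in the WT libraries and from 1782 to 2738 in the th3/+ libraries. Hbb-b1 showed no such difference in raw intron counts, with 6 to 11 in WT against 6 to 14 in th3/+ libraries. Its exon counts ranged from 2892 to 9036 in WT libraries and from 1230 to 2135 in th3/+ libraries. Per exon count neither gene overlapped. Hbb-b1 introns were 0.111% to 0.267% of exon counts in WT against 0.432% to 0.976% in th3/+ libraries. For Hbb-b2 the values were 0.103% to 1.17% against 1.59% to 2.58%. In diffuse libraries Hbb-bs had 1 to 5 intron counts in WT against 2 to 5 in th3/+, and Hbb-bt 1 to 10 against 1 to 6. All of these are minute beside the carried genes, and their source was not tested.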

How the data were processed

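Ter119+ cells of spleen and bone marrow went into libraries of total RNA that keep the strand, per the labels' protocols. The deposited table holds whole-number counts of reads over exons and introns per globin gene, made by the authors; the submitters' processing notes list STAR 2.7.9a, STAR 2.5.3a, SAMtools, HTSeq and mm10 but give no roles. Strand setting and the handling of retained-intron transcripts are not given in the sources used here. Of the table, 18 count columns were used and 31 other numeric columns were not. Numbers 1 to 5 within a group only name libraries; bone marrow was matched by mouse code.

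The members and lists were chosen with earlier results of these data known, and all carried genes are named. Shares, percents and ratios were compared, th3/+ minus WT, on the log2 scale by the exact permutation test, two-sided, over 252 arrangements, with intervals from inverting the test, so folds come from mean log2 values. Benjamini-Hochberg adjustment ran within each of 6 families and, for haplotype differences (100000 residual permutations), within 4 tests. The threshold was 0.05. Such tests were preferred to count models because so few features, whose shares sum to a whole, cannot be normalized to unchanged genes. Each p-value sets a difference between groups against the spread between these libraries. Alternatives were edgeR 4.0.16, DESeq2 1.42.0, limma 3.58.1, a linear scale, uniquely assigned reads and left-out libraries; leaving out WT libraries 4 and 5 was chosen after seeing the data. The permutation tests and the edgeR, DESeq2 and limma fits were tested on simulated data with known effects. The effects were recovered except by edgeR with TMM factors, which was biased toward zero for beta and upward for alpha columns. Those simulated counts lowered beta while alpha and the total stayed fixed, so their shares did not sum to a whole. The direction of that bias therefore does not carry over to the real shares, where TMM factors moved the diffuse values the other way. Apart from the simulation of the spread test, WT and th3/+ were drawn with the same spread setting. The real intron percents spread unequally, as for summed alpha genes of the diffuse haplotype (log2 SD 1.41 in WT against 0.292 in th3/+). The simulations therefore do not show how the tests of means and their intervals behave there. The spread test often missed a large difference in spread. Software was R 4.3.3 and Python 3.11.15 with matplotlib 3.10.9, pandas 2.3.3, scipy 1.17.1 and numpy 2.4.6. Sequences are from GENCODE M21 transcripts (GRCm38).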

Additional observations from a re-analysis of the deposited data

Results flagged for a closer look

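Over 74 sets of 5 spleen libraries screened for a library far from the others of its group (Dixon's test at 95%), 7 were marked, and chance marks about 5% of sets. Of these, 3 were WT diffuse library 5, the shallowest library. Its Hbb-b1 share of exon counts was 67.6%, where the other 4 had 60.2% to 61.9%. Its Hba-a1 share was 8.29%, where the others had 10.7% to 11.3%, and its beta to alpha exon ratio was 3.76, where the others had 2.67 to 2.80. These 3 values describe the same shift and are not independent. The reads shared by Hbb-bs and Hbb-bt took 9.68% in WT single library 5, where the others had 11.9% to 12.4%, and 10.3% in th3/+ single library 1, where the others had 8.04% to 8.52%. The Hba-a2 share of its pair's exon counts was 37.9% in th3/+ single library 2, where the others had 38.8% to 39.1%. The Hbb-b2 share of its pair's exon counts was 18.6% in th3/+ diffuse library 4, where the others had 17.4% to 17.7%.

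The low intron percents of WT libraries 4 and 5 were not marked, since 2 low libraries of 5 hide each other from that test.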

How the results depend on the processing

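All values here are log2 differences, th3/+ minus WT, unless stated. No paired analysis was possible because the rows of the table carry mouse codes and no replicate numbers. All 11 exon share changes and the fall of the beta to alpha exon and intron ratios kept direction and call under every alternative that keeps the denominator. TMM factors moved the diffuse shares (Hbb-b1 to -0.46 and Hba-a1 to 0.61) without a change of direction. Taken per alpha count, not every alpha column can rise. Hba-a2 and the shared alpha reads then turned, to -0.034 and -0.11 on the single and -0.065 and -0.024 on the diffuse haplotype. Of these falls only that of the shared reads on the single haplotype passed (adjusted exact permutation p = 0.0437). With uniquely assigned reads the diffuse intron over exon ratio passed (-0.65). On the linear scale Hbb-b2 intron percent turned (-0.0071 percentage points), as did the haplotype difference of alpha intron percent (-0.015 percentage points). Hbb-b2 intron percent was -0.046 in edgeR and -0.047 in DESeq2. Limma called 1 gene intron percent instead of 0, and also the diffuse beta exon balance (adjusted p = 0.0490).

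Leaving out the WT libraries 4 and 5 of each haplotype turned the intron percent of Hbb-bs (-0.27), Hbb-bt (-0.26), Hbb-b1 (-0.39), Hbb-b2 (-0.29), diffuse Hba-a1 (-0.047), summed beta (-0.20 single, -0.32 diffuse) and diffuse summed alpha (-0.27). It also turned the single beta spread (0.072), the diffuse beta intron balance (0.23) and the haplotype differences of beta (-0.11) and alpha (-0.36) intron percent and of the intron ratio (0.13). The single intron over exon ratio no longer passed (-0.30), and 0 of 8 balances passed, which 5 against 3 libraries hardly allow.

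With 1 library left out at a time, 0 to 2 of 4 spread tests passed. All passes came with a WT library left out, where the even number of libraries changes the statistic as described above. The spread difference ranged from -0.43 to -0.16 (single beta), -0.66 to -0.39 (single alpha), -0.70 to -0.39 (diffuse beta) and -1.14 to -0.56 (diffuse alpha). The diffuse intron over exon ratio ranged from -0.52 to -0.25 and passed without WT library 2. The haplotype difference ranged from -0.17 to 0.35 (beta intron percent) and -0.30 to 0.47 (alpha). Directions also turned for intron percent of Hbb-b2 (-0.16 to 0.18) and Hbb-bt (-0.039 to 0.34) and for the single intron balances of the beta (-0.018 to 0.079) and alpha pair (-0.0037 to 0.059). The cause was not tested. Unique alpha intron counts were as few as 84 in a library.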
